A study of Mus musculus with 10 samples.

Results

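The ubiquitin conjugating enzymes (the E2 enzymes, genes named Ube2) were examined in whole hippocampus of inbred mice that differed in how they explored an open field. Members were all probe sets to which the array annotation gave exactly 1 gene symbol beginning with Ube2. There were 81 such probe sets among 45037 that were not array controls, and they carried 33 gene symbols. High Exploration mice (n = 5) were compared with Low Exploration mice (n = 5). All were female Balb c/J mice from the Jackson Laboratory, born on the same day, the labels name no altered gene and no drug for either group, and they give no age. Both groups had been through repeated open-field sessions before dissection, and they are the 2 ends of a ranking by composite behavioural score, so the mice between them are not represented. Each array was hybridised with the RNA of 1 mouse. The values are MAS 5.0 signals on a linear scale, and differences are given as High minus Low on the log2 scale, so that 1 unit is a doubling.

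Ubiquitin is passed along a chain of enzymes. An E1 enzyme activates it, an E2 enzyme carries it on a catalytic cysteine, and an E3 ligase brings the loaded E2 to a protein that is to be modified. The E2 and its partner set whether 1 ubiquitin or a chain is built and through which lysine. Chains through one lysine send proteins to the proteasome and chains through another serve signalling and DNA repair. In neurons this system limits the amount of receptor, scaffold and signalling proteins at synapses, and loss of the E3 ligase gene UBE3A or of the E2 gene UBE2A causes intellectual disability in humans.

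The upstream sequences of 4 genes are shown because their tested probe sets gave the largest positive and negative differences among those tested (Ube2a, Ube2d3 and Ube2j2) or, after Ube2d3, the largest difference relative to the brightest probe set of the same gene (Ube2n). Each is the 250 bases before the most upstream transcription start on the plus strand of RefSeq GRCm38.p6, 5′ to 3′, at chrX:36874045-36874294 for Ube2a, chr3:135437982-135438231 for Ube2d3, chr10:95514912-95515161 for Ube2n and chr4:155943563-155943812 for Ube2j2. Capitals mark GC boxes (GGGCGG, or CCGCCC where the box lies on the other strand).
Ube2a: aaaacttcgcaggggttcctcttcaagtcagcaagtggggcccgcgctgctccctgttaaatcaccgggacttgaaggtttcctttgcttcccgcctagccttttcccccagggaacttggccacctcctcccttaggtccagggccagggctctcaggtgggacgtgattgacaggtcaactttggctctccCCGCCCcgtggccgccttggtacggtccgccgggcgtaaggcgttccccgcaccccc
Ube2d3: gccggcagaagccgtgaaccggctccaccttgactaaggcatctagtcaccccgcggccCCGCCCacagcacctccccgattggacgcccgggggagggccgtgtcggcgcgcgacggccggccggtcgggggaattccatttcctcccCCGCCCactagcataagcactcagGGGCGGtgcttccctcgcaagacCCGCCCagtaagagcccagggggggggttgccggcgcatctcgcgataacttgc
Ube2n: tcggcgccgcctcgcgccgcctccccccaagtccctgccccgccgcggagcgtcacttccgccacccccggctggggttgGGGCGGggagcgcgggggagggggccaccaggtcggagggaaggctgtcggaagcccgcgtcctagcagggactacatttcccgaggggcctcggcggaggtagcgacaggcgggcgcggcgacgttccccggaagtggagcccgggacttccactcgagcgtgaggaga
Ube2j2: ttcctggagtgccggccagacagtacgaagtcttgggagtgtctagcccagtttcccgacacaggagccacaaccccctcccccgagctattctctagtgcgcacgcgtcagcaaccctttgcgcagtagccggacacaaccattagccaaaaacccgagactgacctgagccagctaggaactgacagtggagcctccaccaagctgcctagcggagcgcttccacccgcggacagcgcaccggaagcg
The window of Ube2d3 held 4 GC boxes, those of Ube2a and Ube2n held 1 each, and that of Ube2j2 held none. RefSeq windows were matched by symbol for 27 of the 33 genes, which gave 36 windows because some genes have several start sites. A GC box on either strand lay in 26 of the 36 windows (72.2%), against 32.7% of 32851 windows over all genes. The CCAAT box (CCAAT or ATTGG) lay in 7 windows (19.4%), against 33.8% of all windows, and the TATA box (TATAAA or TTTATA) in 2 windows (5.6%), against 12.4%. The median number of CpG dinucleotides was 23.5 in the Ube2 windows and 6.0 in all windows. The GC box itself contains a CpG, so its share and the CpG count are not separate descriptions, and no match says only that these letters were not in the window.

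Of the 81 Ube2 probe sets, 51 had a mean log2 signal above the median of all probe sets and were tested, and they covered 24 genes. Since every probe set of a gene was kept, a gene counted as often as it had tested probe sets, from 1 for Ube2e1 or Ube2q2 to 6 for Ube2d3. None of the 51 passed an adjusted p of 0.05 in limma with Benjamini-Hochberg adjustment over 22518 probe sets, and of all 22518, 3 passed, all lower (0.0133%). At an unadjusted p below 0.05, 11 Ube2 probe sets were higher in High Exploration mice (21.6%), against 9.67% of all tested probe sets. At the same level 3 Ube2 probe sets were lower (5.88%), against 20.5% of all. Thus the family leaned the other way from the bulk of the array, with a median difference of 0.40 over the 51 Ube2 probe sets and of -0.31 over all 22518. These shares depended on signal, and 18 of the 51 lay in the highest decile of mean signal. In that decile 26.8% of all probe sets were higher and 7.35% lower at an unadjusted p below 0.05.

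In sign, 33 of the 51 were higher and 18 lower, and the differences ran from -2.37 to 1.74. The 5 High arrays lay wholly above the 5 Low arrays for 4 Ube2 probe sets, against a share of 2.14% of all tested probe sets, and wholly below them for 1, against 6.69%. At the wider level of an adjusted p below 0.1 there were 9 Ube2 probe sets, 7 higher and 2 lower, and 15.7% of all tested probe sets reached that level. Counting each gene once by its brightest tested probe set, 19 of 24 genes were higher. Array by array the groups overlapped, since the median log2 signal of the 51 probe sets was 9.85, 10.1, 9.54, 9.49 and 9.50 on High arrays 1 to 5, against 9.57, 9.53, 9.04, 9.56 and 9.40 on Low arrays 1 to 5.

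**Figure D1:**
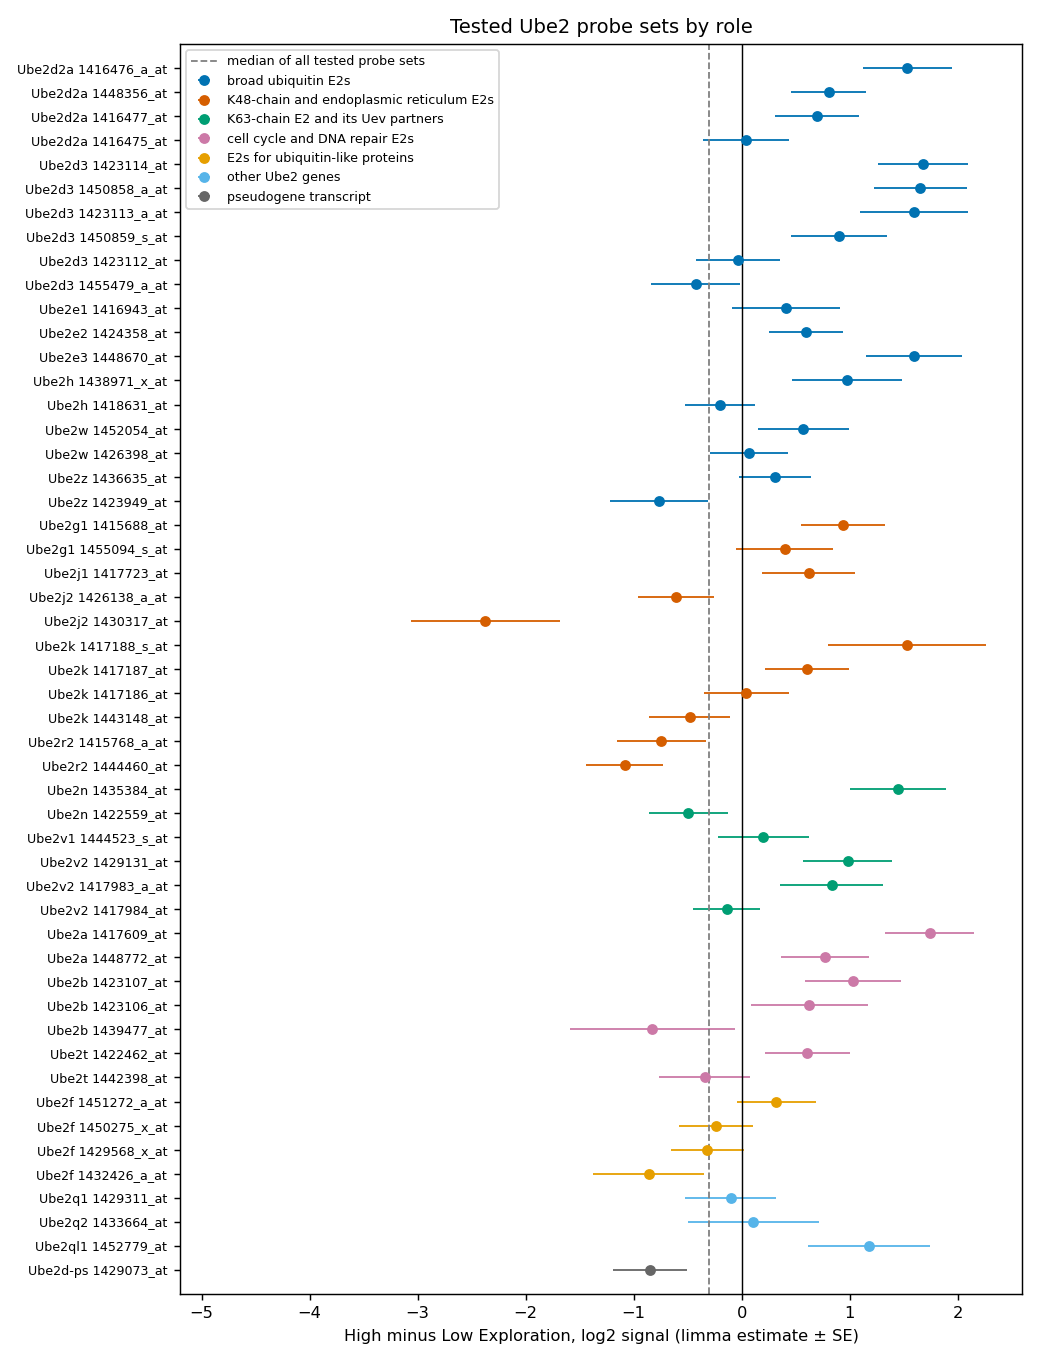
Each row is a tested Ube2 probe set, grouped by role, with the High minus Low difference in log2 signal on the horizontal axis (points: limma estimates; bars: SE; dashed line: the median of all tested probe sets, -0.31). The broad ubiquitin E2s lie mostly right of 0, and the largest difference to the left is that of 1 Ube2j2 probe set at -2.37.

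The array controls separated the groups as well, and these values stand beside every difference below. The hybridisation controls, spiked in just before hybridisation (16 probe sets), had a mean log2 signal of 13.3 ± 0.314 on High arrays and 13.9 ± 0.295 on Low arrays (SD, n = 5 each, exact two-sided permutation p = 0.0159). Spikes with a poly-A tail that enter before labelling (27 probe sets) averaged 11.6 ± 0.491 on High arrays and 13.1 ± 0.443 on Low arrays, with no overlap (n = 5 each, exact p = 0.00794, the smallest that this number of arrays allows). The Gapdh 3′ minus 5′ difference was 4.72 ± 0.481 on High arrays and 3.72 ± 0.228 on Low arrays (n = 5 each, exact p = 0.0159), while that of beta-actin was 5.30 and 4.97 (exact p = 0.484, n = 5 each). When the arrays were set to equal hybridisation controls, the Ube2 median was 1.01 and that of all tested probe sets 0.31, so the sign of the bulk depended on the scale. This setting raises every difference by the same amount, so a Ube2 median already above 0 could only rise. With that control level entered as a covariate, the Ube2 median was 0.11, 1 Ube2 probe set was higher at an unadjusted p below 0.05 and 0 were lower, against 2.3% and 5.7% of all. With the poly-A control level instead, on which the groups do not overlap, the median was 0.01 and 0 reached that level in either direction, against 1.16% higher and 1.96% lower of all.

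Whole hippocampus holds many cell types, and fewer cells of a type and less RNA per cell cannot be told apart in it. Neuron markers were present, with 9 of 10 measured and a summed signal of 34932 to 61095 on High arrays and 26311 to 34795 on Low arrays. Of the 9, 6 were higher, while Prox1 (-0.74), Nrgn (-0.35) and Camk2a (-0.01) were lower. Astrocyte markers (5 of 5) summed to 39587 to 68111 on High arrays and 19886 to 37122 on Low arrays. The brightest of them was Gja1 (1.25), 4 were higher and Slc1a3 (-0.16) was lower. Microglia markers (5 of 5) summed to 9499 to 31794 on High arrays and 24098 to 45680 on Low arrays. That sum was mostly Csf1r (-0.71), while Aif1 (1.06) and C1qa (0.05) ran the other way. Choroid plexus markers (5 of 5) summed to 20817 to 34755 on High arrays and 16951 to 28563 on Low arrays, a sum mostly of Ttr (0.57), while Kl (-1.55), Folr1 (-0.27), Clic6 (-1.19) and Kcnj13 (-0.71) were lower. Endothelial markers (4 of 4) were all lower, with Flt1 at -1.68 and Cdh5 at -1.95, and summed to 510 to 1472 on High arrays and 1071 to 3191 on Low arrays. Markers of proliferating cells (4 of 5), all lower with Mki67 at -1.33, summed to 472 to 1200 on High arrays and 1039 to 1725 on Low arrays. Oligodendrocyte markers (4 of 5) overlapped in their sums, as did those of their precursors (4 of 4) and of red blood cells (2 of 4). No measured marker was at 0 and no marker probe set had an adjusted p below 0.05. The part of the array controls and of these cell types in the Ube2 differences was not tested beyond the covariates above.

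The broad ubiquitin E2s, which work with many E3 ligases and often place the first ubiquitin, made up 19 of the tested probe sets, from 8 genes. Of these 15 were higher, 6 of them at an unadjusted p below 0.05 (31.6%) and 0 lower at that level, against 9.67% and 20.5% of all tested probe sets. All 6 lay in the highest decile of mean signal, where 26.8% of all probe sets were higher and 7.35% lower at that level. The median difference of the 19 was 0.60. Ube2d2a and Ube2d3 encode nearly identical enzymes, the most widely used partners of RING ligases. On the brightest Ube2d2a probe set, 1416476_a_at, the High signals were 34239, 33603, 17437, 24508 and 24764, against Low signals of 7794, 13678, 6257, 18187 and 4911. The groups overlapped only in that Low array 4 lay above High array 3. The difference was 1.53 (SE 0.41, limma adjusted p = 0.0654), and the other 3 tested Ube2d2a probe sets gave 0.80 (1448356_at, unadjusted p = 0.0377, adjusted p = 0.144 in limma), 0.70 (1416477_at) and 0.04 (1416475_at).

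Ube2d3 had 6 tested probe sets, 3 of which had an adjusted p below 0.1. Probe set 1450858_a_at read 15855, 8720, 4686, 8808 and 4572 on the High arrays, against 3471, 3071, 1476, 3294 and 1625 on the Low arrays. Every High array lay above every Low array, and the difference was 1.65 (SE 0.43, limma adjusted p = 0.0646). Probe set 1423114_at read 3811, 4097, 1876, 2070 and 1644 on High arrays, against 1406, 540, 507, 1142 and 677 on Low arrays, again with no overlap (difference 1.68, SE 0.42, limma adjusted p = 0.0632). Probe set 1423113_a_at read 5805, 2180, 1363, 4995 and 3643 on High arrays and 808, 1627, 464, 2037 and 993 on Low arrays, which overlap (difference 1.60, SE 0.50, limma adjusted p = 0.0793). The remaining tested probe sets of the gene gave 0.90 (1450859_s_at), -0.03 (1423112_at) and -0.43 (1455479_a_at).

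Ube2e1, Ube2e2 and Ube2e3 have a catalytic core like that of the Ube2d enzymes behind an added N-terminal stretch. For Ube2e3, probe set 1448670_at read 20297, 7921, 4527, 11205 and 4444 on High arrays, against 2700, 3518, 2667, 3337 and 1689 on Low arrays. The groups did not overlap, although High array 1 alone was far above the other High arrays, and the difference was 1.60 (SE 0.45, limma adjusted p = 0.0679). Ube2e2 (1424358_at) differed by 0.60 (SE 0.34) and Ube2e1 (1416943_at) by 0.41 (SE 0.50), neither past the test. Ube2h, which works with the CTLH ligase complex, gave 0.97 and -0.20 on its 2 tested probe sets. Ube2w, which attaches ubiquitin to the N-terminus of proteins, gave 0.57 and 0.07, and Ube2z, which is charged by the second ubiquitin E1 enzyme Uba6, gave 0.31 and -0.77. Ube2d1 and Ube2d2b were below the signal filter.

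**Figure D2:**
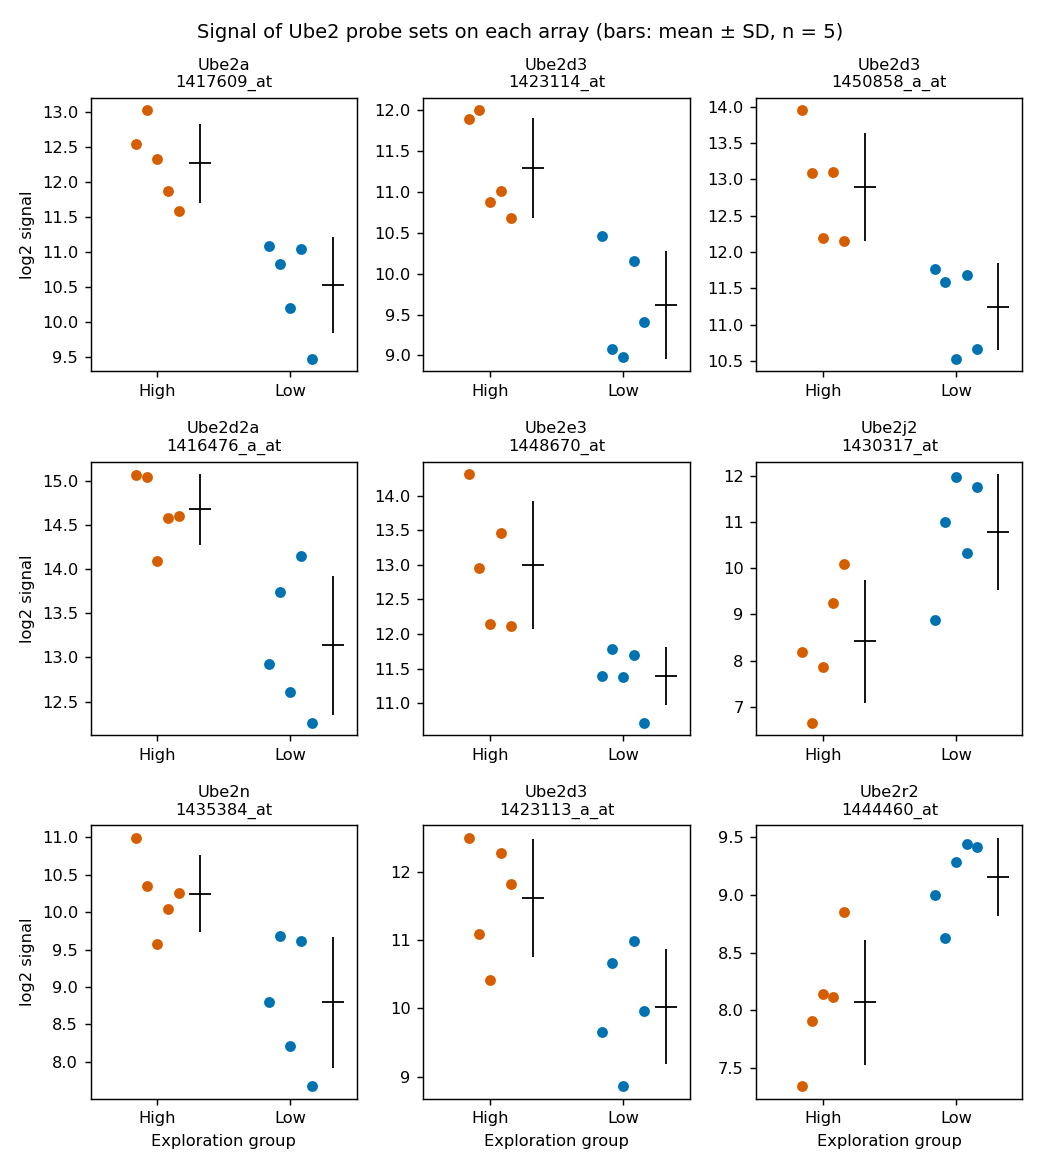
Log2 signal of the 9 Ube2 probe sets with an adjusted p below 0.1 on each array, 1 panel per probe set, with High Exploration left and Low Exploration right (points: arrays; bars: mean ± SD, n = 5 each). High arrays lie wholly above Low arrays for Ube2a 1417609_at, Ube2d3 1423114_at and 1450858_a_at and Ube2e3 1448670_at, and Ube2j2 1430317_at runs the other way with overlap.

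Among the E2s of the cell cycle and of DNA repair, 5 of 7 tested probe sets were higher, 2 of them at an unadjusted p below 0.05 and 0 lower (28.6% and 0%, against 9.67% and 20.5% of all tested probe sets), with a median of 0.63. The 2 were Ube2a 1417609_at, in the highest decile of mean signal, and Ube2b 1423107_at, in the decile below it. In the highest decile 26.8% of all probe sets were higher and 7.35% lower at that level. The share higher was smaller in the decile below. Ube2a and Ube2b are the pair of mammalian counterparts of yeast Rad6 and place ubiquitin on histone H2B and on the replication clamp PCNA. Ube2a, which is X-linked, gave the largest positive difference among the tested probe sets. Its probe set 1417609_at read 5962, 8302, 5115, 3739 and 3060 on High arrays, against 2174, 1814, 1176, 2112 and 710 on Low arrays. The lowest High array lay above the highest Low array. The log2 means were 12.27 ± 0.56 in High and 10.53 ± 0.69 in Low mice (SD, n = 5 each), a difference of 1.74 (SE 0.41, 3.34-fold, limma adjusted p = 0.0594).

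The other Ube2a probe set, 1448772_at, gave 0.77 (SE 0.41). Ube2b gave 1.03 on 1423107_at (SE 0.44, unadjusted p = 0.0364, adjusted p = 0.142 in limma), 0.63 on 1423106_at and -0.83 on 1439477_at. Ube2t, the E2 of the Fanconi anaemia repair pathway, gave 0.61 and -0.34. Ube2c and Ube2s, which build chains for the anaphase-promoting complex in dividing cells, were below the signal filter.

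Ube2n is the E2 that builds signalling chains, and it does so bound to Ube2v1 or Ube2v2, which lack the catalytic cysteine. Of the 6 tested probe sets of these 3 genes 4 were higher, 2 of them at an unadjusted p below 0.05 and 0 lower (33.3% and 0%, against 9.67% and 20.5% of all tested probe sets), with a median of 0.52. Ube2n 1435384_at read 2041, 1308, 764, 1056 and 1224 on High arrays, against 446, 820, 296, 788 and 204 on Low arrays. Only High array 3 fell within the Low range, and the difference was 1.45 (SE 0.45, limma adjusted p = 0.0768). The other Ube2n probe set, 1422559_at, gave -0.49. Of the 2 probe sets higher at an unadjusted p below 0.05, Ube2v2 1429131_at lay in the highest decile of mean signal. There 26.8% of all probe sets were higher and 7.35% lower at that level. Ube2n 1435384_at lay in the decile below it, where the share higher was smaller.

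Ube2v2 1429131_at read 4187, 3097, 1614, 2813 and 2287 on High arrays, against 1213, 1786, 995, 2690 and 775 on Low arrays. The ranges overlapped through Low arrays 2 and 4 (difference 0.98, SE 0.41, limma adjusted p = 0.133). The other Ube2v2 probe sets gave 0.83 (1417983_a_at) and -0.14 (1417984_at), and Ube2v1 (1444523_s_at) gave 0.20.

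The E2s that build degradation chains or sit at the endoplasmic reticulum had differences of both signs. Of 11 tested probe sets from 5 genes, 6 were higher and 5 lower, with 1 higher and 2 lower at an unadjusted p below 0.05, and the median was 0.04. These shares, 9.09% and 18.2%, were close to the 9.67% and 20.5% of all tested probe sets. Ube2j2, anchored in the endoplasmic reticulum membrane and active in the disposal of misfolded proteins, gave the largest negative difference among the tested probe sets. Its probe set 1430317_at read 293, 101, 233, 610 and 1098 on High arrays, against 468, 2037, 4038, 1283 and 3469 on Low arrays. High arrays 4 and 5 reached into the Low range through Low array 1, and the spread was wide (log2 means 8.41 ± 1.32 in High and 10.79 ± 1.26 in Low, SD, n = 5 each). The difference was -2.37 (SE 0.69, limma adjusted p = 0.0706). The second Ube2j2 probe set, 1426138_a_at, gave -0.61 (SE 0.35), and the related membrane enzyme Ube2j1 gave 0.62 (SE 0.43).

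Ube2r2, a partner of cullin ligases, was lower on both tested probe sets. Probe set 1444460_at read 162, 239, 283, 277 and 461 on High arrays, against 512, 396, 625, 694 and 681 on Low arrays. Only High array 5 lay above the lowest Low array, and the difference was -1.08 (SE 0.35, limma adjusted p = 0.0839). The other, 1415768_a_at, gave -0.74 (SE 0.41).

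Ube2g1, which lengthens degradation chains, read 8502, 10208, 5378, 3500 and 5128 on High arrays with 1415688_at, against 4449, 3745, 2631, 3890 and 1915 on Low arrays. High array 4 lay within the Low range (difference 0.94, SE 0.39, limma adjusted p = 0.131), and the other Ube2g1 probe set gave 0.40. Ube2k, which binds huntingtin, gave 1.53 on 1417188_s_at, where High array 3 read 449 and High array 1 read 8060 (SE 0.73, limma adjusted p = 0.175). Its other tested probe sets gave 0.61 (1417187_at), 0.04 (1417186_at) and -0.48 (1443148_at). Ube2g2 was below the signal filter.

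The E2s that carry ubiquitin-like proteins were represented among tested probe sets by Ube2f alone, which loads NEDD8 onto cullin 5. Of its 4 tested probe sets 1 was higher and 3 lower, none at an unadjusted p below 0.05. Probe set 1451272_a_at read 1106, 1825, 1362, 701 and 840 on High arrays and 1220, 817, 679, 1158 and 675 on Low arrays, which overlap (difference 0.32, SE 0.36, limma adjusted p = 0.555). Probe set 1432426_a_at read 411, 143, 386, 628 and 395 on High arrays and 682, 346, 1974, 494 and 487 on Low arrays, where Low array 3 is alone at the top (difference -0.86, SE 0.51, limma adjusted p = 0.262). Ube2l6, the E2 for ISG15, was below the signal filter. Ube2m, another E2 for NEDD8, had no probe set with that symbol alone and was not analysed here, and neither was Ube2l3, which 4 probe sets list only together with other symbols.

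Among the remaining genes, Ube2ql1 gave 1.18 (1452779_at). Its signals were 1750, 2952, 3313, 879 and 474 on High arrays, against 1450, 852, 526, 468 and 396 on Low arrays. High arrays 4 and 5 lay within the Low range (SE 0.56, limma adjusted p = 0.175). Ube2q1 and Ube2q2 differed by -0.10 and 0.11. Ube2o, Ube2u and Ube2cbp were below the signal filter. Ube2d-ps, which RefSeq annotates as a long noncoding RNA and not as an enzyme, read 123, 261, 169, 191 and 276 on High arrays with 1429073_at, against 281, 377, 309, 319 and 521 on Low arrays. It was the 1 Ube2 probe set with all High arrays below all Low arrays (difference -0.85, SE 0.34, limma adjusted p = 0.124), and at equal hybridisation controls the difference was -0.24.

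Over all probe sets the median difference was higher at high signal, and in the family the 2 brightest deciles had the highest medians. In the highest decile of mean signal, 17 of 18 Ube2 probe sets were higher, with a median of 0.92, against a median of 0.43 over all 4504 probe sets there. In that decile 9 of 18 Ube2 probe sets were higher at an unadjusted p below 0.05, against 26.8% of all, and 0 were lower, against 7.35% of all. The 18 came from 12 genes. Several of the 9 were probe sets of Ube2d3 and Ube2d2a, so the 9 are not 9 separate genes. All 4 Ube2 probe sets with High arrays wholly above Low arrays were in that decile, where 6.77% of all probe sets had this pattern.

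In the decile below it, 9 of 13 Ube2 probe sets were higher (median 0.60, against -0.17 for all), and in the next one 2 of 11 (median -0.49, against -0.47 for all). Below that the Ube2 medians followed no order: 0.00 in decile 7 (3 of 6 higher), 0.11 in decile 6 (2 of 3), -0.32 in decile 5 (3 of 8), -0.23 in decile 4 (1 of 5), -0.08 in decile 3 (2 of 4), -0.38 in decile 2 (1 of 7) and -0.64 in decile 1 (2 of 6), against -0.55 to -0.65 over all probe sets in these deciles. The 30 Ube2 probe sets below the filter were lower in 21 cases and higher in 9, with a median of -0.31 when fitted without the filter. In that fit 1 of them was higher and 3 lower at an unadjusted p below 0.05, against 4.48% and 16.8% of all probe sets in it. Those shares include the bright probe sets, and the shares over the probe sets below the filter alone are not given here. The 3 were Ube2h 1418632_at (-2.38), Ube2s 1430962_at (-1.76) and Ube2d3 1455480_s_at (-0.94), and the 1 was Ube2f 1436254_at (1.29). These 4 were named after their values were seen.

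**Figure D3:**
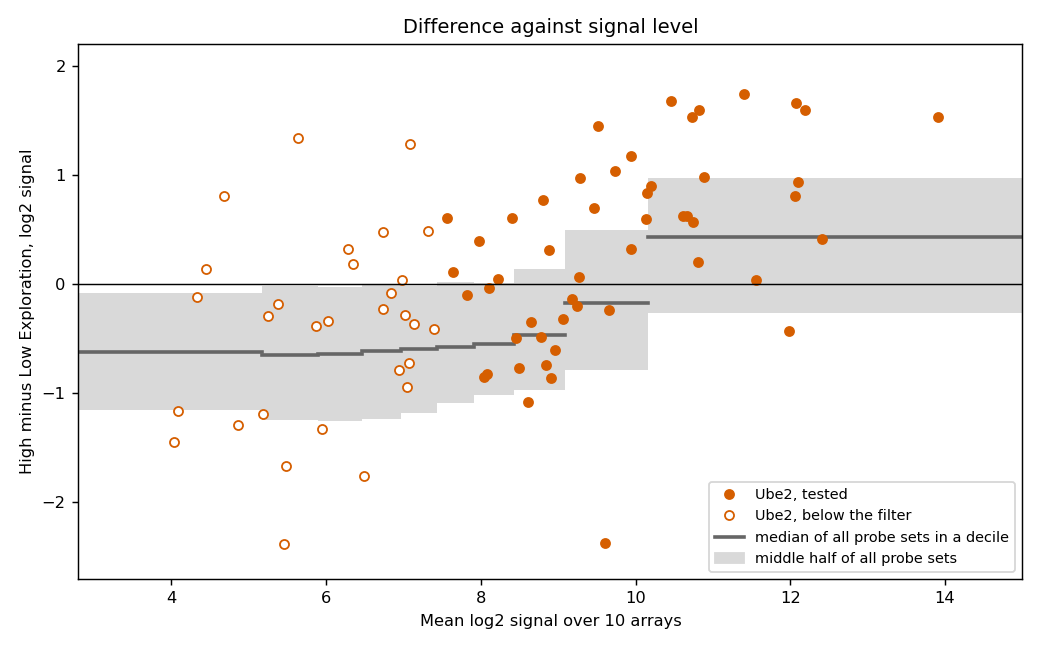
High minus Low difference in log2 signal (vertical axis) against mean log2 signal over the 10 arrays (horizontal axis) for the Ube2 probe sets, tested and below the filter, with the median of all probe sets in each decile of signal as a line and their interquartile range shaded. The line runs from -0.62 in the lowest decile to 0.43 in the highest, and 17 of the 18 Ube2 points in the highest decile lie above 0.

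Probe sets of the same gene often gave different values. Of the 15 Ube2 genes with 2 or more tested probe sets, 9 had probe sets of both signs. For a comparison in which a factor common to an array cancels, the log2 ratio of each tested probe set to the brightest tested probe set of its gene was taken on each array and fitted with limma over 6578 such pairs from all genes. The 27 Ube2 pairs had a median of -0.64, against -0.28 over all pairs. None of the 27 passed an adjusted p of 0.05 with all arrays at equal weight, against 0.532% of all pairs. At an unadjusted p below 0.05, 6 of the 27 Ube2 ratios were lower in High mice and 0 higher, against 18.6% and 6.6% of all pairs. The lower count was thus near the share of all pairs. After quantile normalisation 2 were lower and 2 higher, and after cyclic loess 3 and 2. A dependence of the difference on signal level does not cancel in such a ratio. The Gapdh 3′ minus 5′ difference also separated the groups. An effect of position along the transcript need not cancel between probe sets at different positions, and its part in these ratios was not tested.

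The widest of these gaps was within Ube2d3. Relative to 1450858_a_at, the ratio of 1455479_a_at differed between the groups by -2.08 (SE 0.61, limma adjusted p = 0.0676) and that of 1423112_at by -1.69 (SE 0.48, limma adjusted p = 0.0642). Both passed with array weights (limma adjusted p = 0.0329 and 0.0432) and without High array 5 (0.0393 and 0.0412). Neither passed under any other setting tried for the ratios. In the same order, quantile normalisation gave -2.08 and -0.83, and cyclic loess -2.07 and -0.76. Adjusting for the hybridisation controls gave -0.39 and -0.90. Adjusting for the poly-A controls, where the fit extrapolates, gave -0.25 and 0.15. On 1455479_a_at itself the High arrays read 2795, 2166, 2163, 6464 and 6180 and the Low arrays 3054, 5370, 4418, 5949 and 5301. High arrays 1, 2 and 3 were thus the lowest of the 10 on that probe set, while High arrays 1 and 2 were among the top 3 on 1450858_a_at. For Ube2n the ratio of 1422559_at to 1435384_at differed by -1.94 (SE 0.59, limma adjusted p = 0.0752). The other 3 lower ratios were those of 1416475_at in Ube2d2a (-1.49), 1418631_at in Ube2h (-1.18) and 1417984_at in Ube2v2 (-1.12). By the suffixes of the array design, 35 of the 51 tested probe sets were meant to match 1 transcript, 9 (_a_at) several transcripts of 1 gene, and 7 (_s_at and _x_at, 4 and 3) possibly other genes as well, and for the nearly identical Ube2d genes shared signal was not tested.

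**Figure D4:**
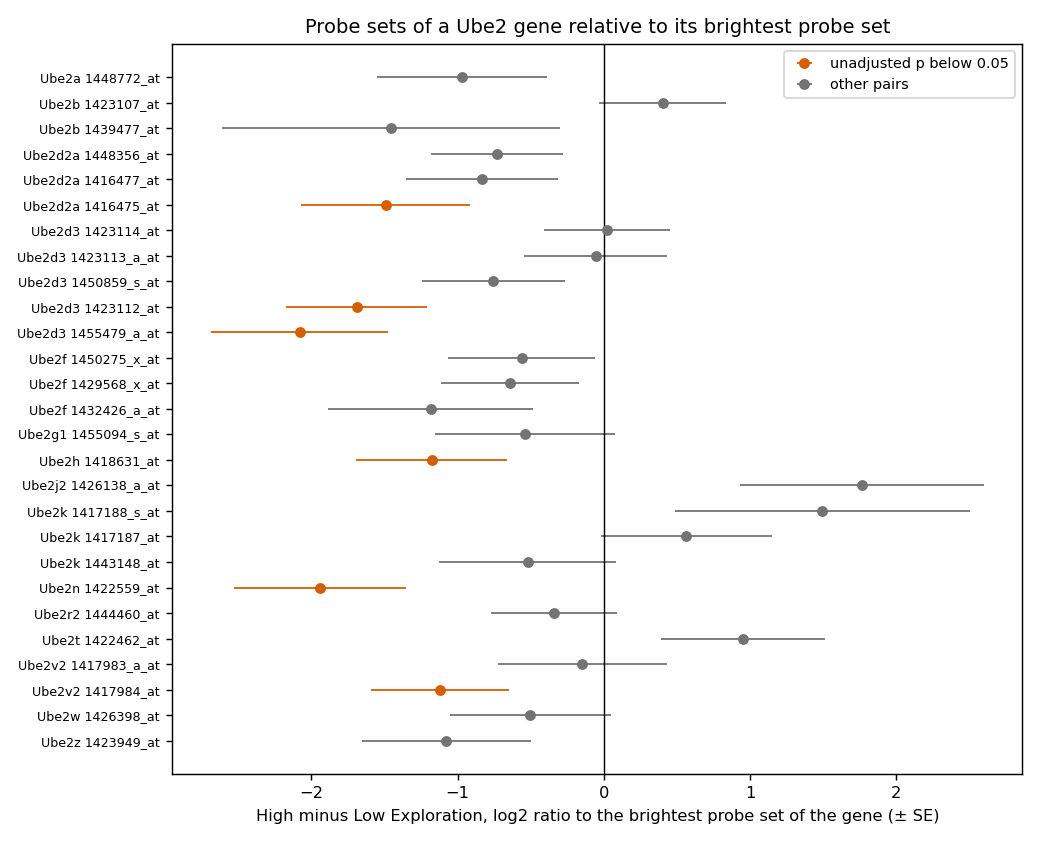
Each row is a tested Ube2 probe set set against the brightest tested probe set of its gene, with the High minus Low difference of their log2 ratio on the horizontal axis (points: limma estimates; bars: SE; colour: unadjusted p below 0.05 or not). The 6 coloured rows all lie left of 0, and the Ube2d3 row at -2.08 is the farthest.

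The rest of the conjugation pathway was read from lists of the other steps, with 295 tested probe sets in all, and the counts higher and lower for each step are at an unadjusted p below 0.05. Of these 48 were higher and 41 lower at an unadjusted p below 0.05 (16.3% and 13.9%, against 9.67% and 20.5% of all tested probe sets), 0 passed the adjusted threshold, and the median was 0.01. Ubiquitin and ubiquitin-like proteins (12 tested probe sets) had a median of 0.35 with 1 higher and 1 lower at that level, namely Sumo3 (0.71) and Urm1 (-1.90). Ubb and the main E1 gene Uba1 had no probe set with their symbol alone and were not analysed here.

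The E1 activating enzymes (14 tested probe sets) split evenly, with 2 higher and 2 lower and a median of -0.02. Uba3, a subunit of the NEDD8 E1, differed by 1.20 (SE 0.39, limma adjusted p = 0.0831), with signals of 8186, 6656, 2542, 4023 and 2820 on High arrays, all above the Low signals of 2095, 1910, 1615, 2427 and 1582. Uba7, the E1 for ISG15, differed by -1.91 (SE 0.43, limma adjusted p = 0.0587), with 50, 149, 91, 154 and 101 on High arrays, all below the Low signals of 333, 271, 250, 781 and 441. E2 and E2-like genes outside the Ube2 names (11 tested probe sets) had 0 higher and 2 lower and a median of 0.46, and the 2 were probe sets of Birc6, an inhibitor of apoptosis that carries an E2 domain (-1.47 and -1.42).

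HECT ligases (53 tested probe sets) had 11 higher and 12 lower (20.8% and 22.6%), with Ube3c at 1.78 and Trip12 at -1.20. Ube3a, the HECT ligase lost in Angelman syndrome, gave 0.87 on 1416681_at (SE 0.35, limma adjusted p = 0.123), 0.57 on 1416680_at, 0.26 on 1425206_a_at and -1.33 on 1431224_at. RBR and RING ligases and U-box proteins (77 tested probe sets) had 12 higher and 15 lower (15.6% and 19.5%), with Marchf6, a ligase of the endoplasmic reticulum membrane, at 2.00 (SE 0.49, limma adjusted p = 0.0619) and Cblb at -1.42 (SE 0.31, limma adjusted p = 0.0581). Cullins, their Rbx partners and subunits of the anaphase-promoting complex (50 tested probe sets) had 6 higher and 3 lower (12% and 6.0%), with Cul3 at 1.36 and Anapc5 at -2.10.

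Deubiquitinases, which remove ubiquitin, were tested with 78 probe sets, of which 16 were higher and 6 lower at an unadjusted p below 0.05 (20.5% and 7.69%). In sign 40 were higher and 38 lower, with a median of 0.07. Uchl5, which acts on the proteasome, gave 1.70 with no overlap (1851, 2194, 962, 1416 and 1080 on High arrays, 602, 388, 306, 703 and 323 on Low arrays, limma adjusted p = 0.0581), and Usp24 gave -1.42 (limma adjusted p = 0.0642). Uchl1, an abundant neuronal deubiquitinase, gave -0.97 (limma adjusted p = 0.211) on 1448260_at. That probe set was dim here, with a mean log2 signal of 7.80, in decile 6, where the median of all probe sets was -0.57. The Ube2 median of 0.40 was above the medians of all these lists except the E2-like genes (0.46), as a description of these arrays and not a test. The lists were not matched for signal level. By shares at an unadjusted p below 0.05, the deubiquitinases (20.5% higher and 7.69% lower) were near the Ube2 probe sets (21.6% and 5.88%).

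How many Ube2 probe sets stood out depended on how the arrays were brought to a common scale. At an unadjusted p below 0.05 there were 11 higher and 3 lower on the deposited scale (against 9.67% and 20.5% of all tested probe sets). There were 14 and 1 after quantile normalisation (12% and 10.7% of all) and 13 and 1 after cyclic loess (11.7% and 11.3% of all). There were 24 and 1 after centring each array on its median (23% and 5.74% of all) or at equal hybridisation controls (23.3% and 3.82% of all), so the shares over all probe sets moved with the scale as well. The Ube2 median was above 0 and above that of all tested probe sets under these settings (0.40 to 1.01 for Ube2 and -0.31 to 0.31 for all). Median centring and equal hybridisation controls shift every difference by the same amount, so the gap of 0.70 between the 2 medians could not change under them. That gap was 0.50 after quantile normalisation and 0.47 after cyclic loess. With the hybridisation or the poly-A control level as a covariate it was 0.24 or 0.048. Median centring brought 7 Ube2 probe sets past an adjusted p of 0.05, all higher in High mice, where 3.69% of all were higher and 0.338% lower. Restricting the test to the probe sets above the 75th percentile of mean signal brought 5 past it, all higher (2.03% higher and 4.31% lower of all), namely Ube2a 1417609_at (limma adjusted p = 0.0436), Ube2d3 1423114_at and 1450858_a_at (0.0458 each), Ube2d2a 1416476_a_at (0.0460) and Ube2e3 1448670_at (0.0475). Without High array 5, 4 were past it higher (Ube2a 1417609_at, Ube2d3 1423114_at and 1450858_a_at, and Ube2e3 1448670_at) and 1 lower (Ube2j2 1430317_at), against 0.768% and 3.86% of all. With array weights 5 were past it higher and 1 lower, against 2.72% and 6.99% of all.

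**Figure D5:**
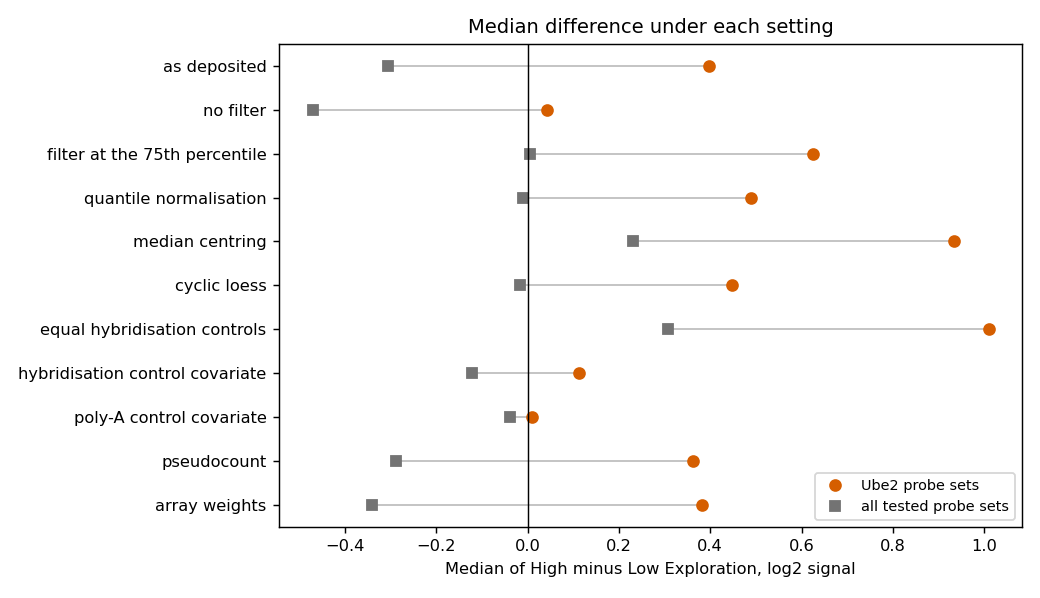
Median High minus Low difference in log2 signal (horizontal axis) over the tested Ube2 probe sets (circles) and over all tested probe sets (squares) under each processing setting (rows). The Ube2 median lies right of that of all probe sets in every row, and with the poly-A control level as a covariate it is 0.01.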

How the data were processed

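Whole hippocampus of 5 High Exploration and 5 Low Exploration female Balb c/J mice was profiled on Affymetrix mouse 430 2.0 arrays, 1 per mouse, and groups follow the sample labels. The labels give Qiagen columns for the RNA of every sample, and the study's methods name these columns or Trizol. The labels describe the standard Affymetrix protocol and the study's methods a double round of amplification, so amplification is not settled here. The series' design text concerns a different experiment and was not followed. The signal intensity deposited by the authors was computed with MAS 5.0 in Affymetrix Expression Console 1.1 and is linear, scaled to 1 trimmed mean per array (2% trimmed at each end), with no distribution normalisation. Such scaling makes the values relative: brighter transcripts on an array lower all others. Signals carry no read depth, and the number of arrays limits the precision.

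The log2 of the deposited intensity was fitted with limma 3.58.1 in R 4.3.3 (lmFit, eBayes, Benjamini-Hochberg) over the 22518 of 45037 probe sets that were not controls and whose mean log2 signal was above the median. Array controls were compared by exact permutation of the 10 arrays. The scripts were tested on simulated data. Platform annotation named a single gene on 34958 probe sets, which alone were used by name, more than 1 gene on 932 and no gene on 9211. No 2 arrays held identical values (pairwise correlation of log2 signal 0.70 to 0.84).

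The members and lists were chosen with earlier results of these data known. Signals on each array are given for the 12 Ube2 probe sets with the smallest unadjusted p and, in each role group, for the brightest probe set and the one with the smallest p. From the pathway lists, the 2 probe sets per list with the smallest p are named, with Ube3a and Uchl1. Ratios within a gene were added after seeing the data. Alternatives were no filter, a filter at the 75th percentile, quantile normalisation, cyclic loess, median centring, equal hybridisation controls, control levels as covariates, a pseudocount of 23.0, array weights and leaving out each array.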

Additional observations from a re-analysis of the deposited data

How the results depend on the processing

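No paired analysis was possible because the labels number each mouse on its own and the groups share no replicate numbers. For the 18 named probe sets and ratios, 313 of the values under alternatives kept their direction and side of the threshold, 28 passed it in the same direction and 11 turned. None of the 18 passed the threshold in the main fit, so a value that shrank without turning counted as kept. With the hybridisation covariate, for example, Ube2g1 1415688_at went from 0.94 to 0.0019 and was counted so. The tally therefore does not measure how stable the sizes were.

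Without the filter on low signal, 5 Ube2 probe sets were lower at an unadjusted p below 0.05, 31 pathway probe sets were higher and the Ube2 median was 0.042. With the filter at the 75th percentile, 5 Ube2 probe sets passed the adjusted threshold, all higher, 1 was lower at the unadjusted level, 0 lay wholly below and 22 pathway probe sets were lower. After quantile normalisation 1 Ube2 probe set and 19 pathway probe sets were lower, 0 Ube2 probe sets lay wholly below, and 2 ratios within a gene were lower and 2 higher. After cyclic loess these counts were 1, 20, 0, 3 and 2. Median centring gave 7 Ube2 probe sets past the adjusted threshold, 24 higher and 1 lower at the unadjusted level, 9 wholly above and 0 wholly below, 103 higher and 6 lower pathway probe sets and a median of 0.93. Equal hybridisation controls gave 24 higher, 1 lower, 8 wholly above, 0 wholly below, 106 and 5 in the pathway and a median of 1.01. All-probe medians were -0.31 as deposited, 0.23 median centred and 0.31 at equal hybridisation controls.

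With hybridisation controls entered as a covariate, 1 Ube2 probe set was higher and 0 lower, 12 pathway probe sets were higher and 12 lower, 0 ratios were lower, the median was 0.11, and Ube2f 1451272_a_at (-0.42) and Ube2ql1 1452779_at (-0.57) turned. With the poly-A level, on which the groups do not overlap, so that the fit extrapolates, 0 were higher and 0 lower, 7 and 3 in the pathway, 0 ratios were lower and the median was 0.010. There Ube2d2a 1416476_a_at (-0.042), Ube2n 1435384_at (-0.085), Ube2g1 1415688_at (-0.27), Ube2v2 1429131_at (-0.50), Ube2f 1451272_a_at (-0.57) and 1432426_a_at (0.64), Ube2ql1 1452779_at (-0.11) and the ratios of Ube2d3 1423112_at (0.15) and Ube2n 1422559_at (0.65) turned. Of all tested probe sets, 2.3% were higher and 5.7% lower at the unadjusted level with the hybridisation covariate. With the poly-A level these shares were 1.16% and 1.96%. The pseudocount brought 1 Ube2 probe set past the adjusted threshold, higher (0.187% higher and 1.44% lower of all), and 1 ratio higher at the unadjusted level. Array weights brought 5 higher and 1 lower past the adjusted threshold (2.72% and 6.99% of all), 2 Ube2d3 ratios past it lower, and 1 ratio higher at the unadjusted level. The cause of these shifts was not tested.

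Leaving out 1 array at a time gave 0 to 4 Ube2 probe sets past the adjusted threshold higher and 0 to 1 lower (4 and 1 without High array 5), 7 to 16 higher and 2 to 5 lower at the unadjusted level (7 without High array 1 or 2 or Low array 3 or 5, 5 lower without High array 5), 4 to 8 wholly above (7 without High array 3, 8 without Low array 1), 1 to 2 wholly below (2 without High array 5 or Low array 1, 2 or 3) and medians of 0.31 to 0.49. Pathway probe sets were 23 to 49 higher (23 without High array 1, 27 without High array 2 or Low array 3, 29 without Low array 5) and 23 to 44 lower (23 without High array 2). Ratios were 3 to 7 lower (3 without High array 1 or 2 or Low array 5) and 0 to 2 higher (2 without High array 3). Groups that do not overlap cannot come to overlap when an array is left out. The counts wholly above and wholly below could therefore only stay at 4 and 1 or rise, and they do not measure stability.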
